A study of Mus musculus with 5 samples.

Results

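The receptor chains for IL-2, IL-4 and IL-7 that pair with the common gamma chain, and the receptor chains for interferon gamma and the type I interferons, were followed in cultured mouse CD8 T cells. The 9 genes were Il2ra, Il2rb, Il2rg, Il4ra, Il7r, Ifngr1, Ifngr2, Ifnar1 and Ifnar2, and every probe set with one of these as its single gene name was taken, whatever its signal. This gave 8 of the 8251 genes named on the array, with 10 of its 12422 probe sets other than controls. Il2rg, the common gamma chain itself, is not among the names in the probe annotation and has no value. Il4ra and Ifnar2 had more than 1 probe set, and counts of genes use the brightest. Of the 10 probe sets 9 passed a filter on low signal, which left 7 genes to test, and Ifngr2 did not pass it.

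The cells came from lymph nodes of OT-I mice aged 6 to 8 weeks, C57BL/6 animals with a transgene-encoded T cell receptor that recognises an ovalbumin peptide. They were enriched for CD8+ CD44-low (antigen-inexperienced) cells by removing other cells, and stimulated on latex beads coated with the peptide on its MHC molecule and with B7-1, the ligand of CD28. Human IL-2 was added to all cultures, controls included, and mouse IL-21 to some of them. There was 1 array of cells with IL-21 at 72 h, 2 of cells with IL-21 at 48 h and 2 of cells without IL-21 at 48 h. The labels call these biological replicates without naming separate mice or cultures, so the spread behind each p-value is that among these samples, which may be technical. Cells at 72 h that had no IL-21 were not analysed here, and the time comparison lies within IL-21-treated cells.

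Receptors of this family work as pairs or triplets. IL-2 binds with high affinity to a complex of its alpha chain (Il2ra, CD25), its beta chain (Il2rb, CD122, which also serves the IL-15 receptor) and the common gamma chain, and IL-21, IL-4 and IL-7 each use a chain of their own with that same gamma chain. The gamma chain carries the kinase JAK3 and its partner chains JAK1, and STAT proteins are phosphorylated in turn. CD8 T cells raise CD25 and lose the IL-7 receptor after antigen stimulation, and the IL-7 receptor is later found on memory precursors. The interferon gamma receptor is built from Ifngr1, which binds the cytokine, and Ifngr2, and the type I interferon receptor from Ifnar1 and Ifnar2.

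Signal is given below as the normalised signal of a probe set, a quantile-normalised intensity with an offset of 1.53 signal units added. It follows 1 probe set across arrays and is not compared between probe sets. The deposited arrays differed in overall signal, with trimmed means of 65.8 at 72 h, 105 on each 48 h array of IL-21-treated cells, and 65.2 and 75.3 on those of untreated cells. All 9 CD8 T cell markers named on the array passed the filter, and their summed signal was 8530 at 72 h, 5900 to 6450 with IL-21 at 48 h and 5770 to 5870 without IL-21. They did not move together, with 5 higher and 4 lower at 72 h than with IL-21 at 48 h (median log2 difference 0.12). Cd3g differed by 1.78 and Cd8a by -0.51. Summed signal of 9 B cell markers was 1250 at 72 h, 605 to 751 with IL-21 at 48 h and 509 to 785 without it, and 6 of the 9 passed the filter. For 15 myeloid and dendritic cell markers, 8 of which passed, it was 376, 263 to 390 and 361 to 456 in the same groups. For 5 CD4 and regulatory T cell markers, 2 of which passed, it was 84.9, 45.2 to 51.0 and 58.4 to 81.4, with Cd4 at 32.6 on the 72 h array, 9.39 and 15.9 with IL-21 at 48 h, and 12.8 and 15.6 without it. None of the 4 NK cell markers passed. Cd37, from the B cell list, rose by 1.64 on the log2 scale between 48 and 72 h, and H2-Ab1, from the myeloid list and also inducible by interferon gamma, by 1.24 (limma adjusted p = 0.0176 and 0.0256). On the same list as H2-Ab1 the related genes H2-Eb1 and Cd74 differed by -0.78 and -0.37 without passing, and H2-Aa was below the filter. Of the B cell markers past the filter 4 were higher and 2 lower at 72 h (median 0.42), and of the myeloid markers 3 were higher and 5 lower (median -0.43). Most of the B cell sum at 72 h came from Ighm (868) and Cd37 (254), so it follows these bright probe sets more than the list. No marker was listed at 0, and the part of other cells in the receptor signals was not tested. Fewer cells of a type and less RNA per cell cannot be told apart in such samples.

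Promoter windows are shown for Il7r and Il2ra, which lay at opposite ends of the 72 h differences, and for the interferon receptor genes Ifngr1 and Ifnar1, which passed the test at 72 h together. Each runs 5′ to 3′ along its gene, from 250 bases before to 50 bases after an annotated start site, as given by RefSeq for GRCm38.p6. Capitals mark matches to any of the motifs named after the sequences.
Il7r, chr15:9529827-9530126, minus strand: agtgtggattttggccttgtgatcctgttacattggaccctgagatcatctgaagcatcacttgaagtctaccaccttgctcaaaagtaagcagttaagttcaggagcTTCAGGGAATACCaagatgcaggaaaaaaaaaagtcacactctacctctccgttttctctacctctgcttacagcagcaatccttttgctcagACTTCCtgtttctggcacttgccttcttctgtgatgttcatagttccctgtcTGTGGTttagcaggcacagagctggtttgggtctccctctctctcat
Il2ra, chr2:11642542-11642841, plus strand: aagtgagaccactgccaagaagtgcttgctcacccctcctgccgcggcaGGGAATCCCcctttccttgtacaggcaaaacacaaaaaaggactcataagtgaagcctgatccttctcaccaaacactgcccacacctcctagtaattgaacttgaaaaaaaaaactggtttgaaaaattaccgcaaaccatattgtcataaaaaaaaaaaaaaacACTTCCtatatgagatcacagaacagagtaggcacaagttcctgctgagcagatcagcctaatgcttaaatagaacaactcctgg
Ifngr1, chr10:19591699-19591998, plus strand: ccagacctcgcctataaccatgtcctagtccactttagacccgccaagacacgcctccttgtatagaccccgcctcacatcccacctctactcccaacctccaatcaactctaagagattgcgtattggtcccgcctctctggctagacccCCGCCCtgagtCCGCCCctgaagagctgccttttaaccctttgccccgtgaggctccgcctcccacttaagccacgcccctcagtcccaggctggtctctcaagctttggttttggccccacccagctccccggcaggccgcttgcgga
Ifnar1, chr16:91484965-91485264, plus strand: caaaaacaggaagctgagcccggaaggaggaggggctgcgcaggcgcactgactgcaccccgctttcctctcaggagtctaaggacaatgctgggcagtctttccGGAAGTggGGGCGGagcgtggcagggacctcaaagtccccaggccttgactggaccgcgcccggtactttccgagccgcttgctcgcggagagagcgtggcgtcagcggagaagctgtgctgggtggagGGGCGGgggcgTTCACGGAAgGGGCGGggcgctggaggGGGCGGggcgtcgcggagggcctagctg
The motifs were searched on both strands. They were TTCNNNGAA for STAT factors, GGGANTNCC for NF-kappaB and GTAAACA for forkhead (FOXO) factors. Others were GGAAGT for factors of the ETS family, GGGCGG for the so-called GC box, TGTGGT for RUNX factors, TGANTCA for AP-1 factors and TATAAA for the TATA box. The interferon response element was also searched, with no match in these 4 windows. The Il7r window held a match to STAT, NF-kappaB, ETS and RUNX, the first and second of them overlapping. The Il2ra window held NF-kappaB and ETS, the Ifngr1 window GC boxes, and the Ifnar1 window STAT, ETS and GC boxes. Among 32851 windows of the same length, a STAT match was held by 8.3%, NF-kappaB by 3.95%, ETS by 23.8%, RUNX by 16.8%, GC box by 35.7%, TATA by 13.6%, AP-1 by 7.81%, FOXO by 3.65% and the interferon response element by 3.44%. The windows differed in base composition, with 45.7% G and C in Il7r and 42.7% in Il2ra, 60.3% in Ifngr1 and 68.3% in Ifnar1, against a median of 52.7% over all windows. CG dinucleotides numbered 1, 3, 14 and 26 in the same order, against a median of 7. The NF-kappaB letters were chosen after windows had been seen, so the 3.95% is no baseline for the matches shown. A match is a description of letters only. Il2rb is named without a window.

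The time comparison asked how the receptors differed between 72 h and 48 h in cells given IL-21. Receptor signals were mostly higher on the 72 h array. Of the 7 genes tested, 3 rose at an adjusted p under 0.05 in limma (Il2rb, Ifngr1 and Ifnar1), 0 fell and 4 did not pass, where 4.04% of all 7453 probe sets tested rose and 7.12% fell (11.2% together). At an unadjusted p under 0.05 it was 5 of the 7, against 27.3% of all probe sets. By sign 6 were higher and 1, Il2ra, was lower, and the median log2 difference was 1.18, against -0.01 over all probe sets tested. On the 72 h array 5 of the 7 genes lay above all 4 arrays at 48 h, as did 30.4% of all probe sets, and 1 lay below all 4, as did 33.8%.

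**Figure D1:**
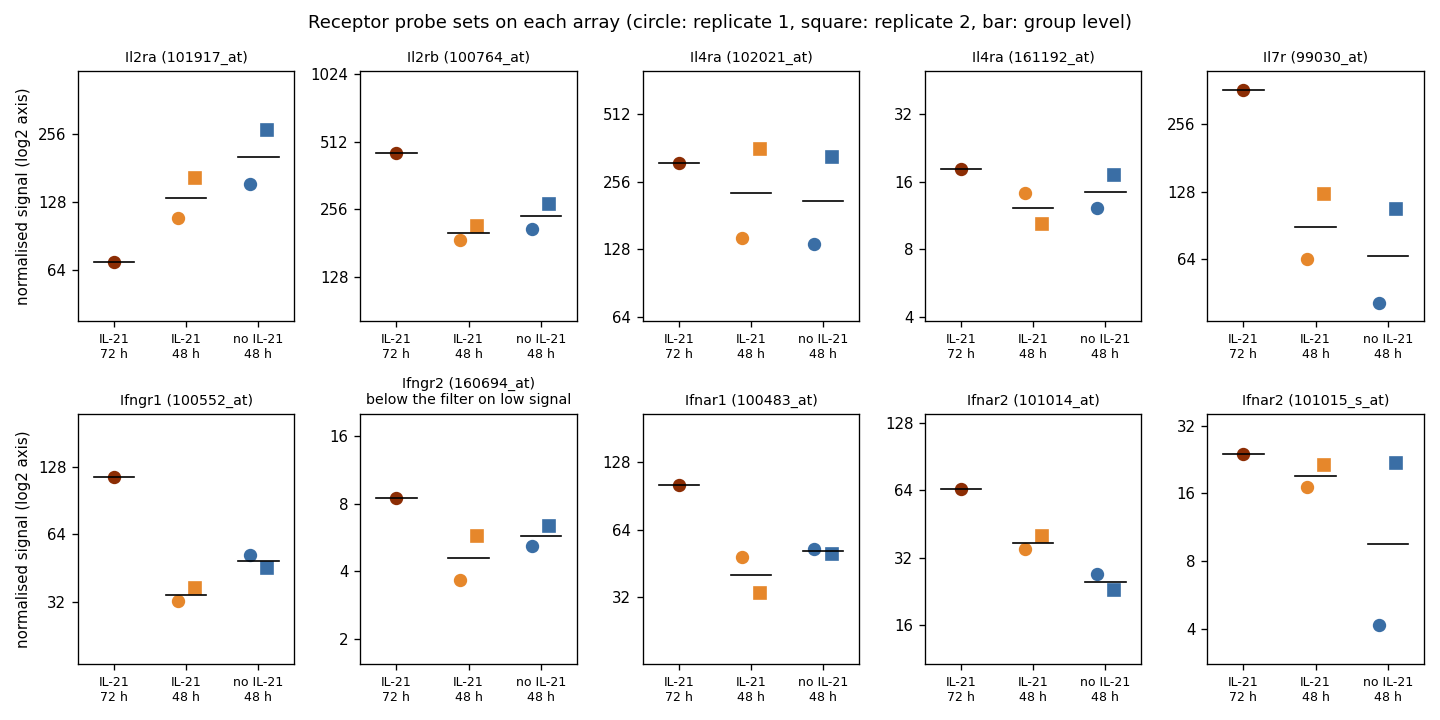
Normalised signal (log2 axis) of each receptor probe set on the 72 h and 48 h arrays with IL-21 and the 48 h arrays without it; circles and squares are replicates 1 and 2 and bars the group levels. The 72 h array stands above all 4 arrays at 48 h for Il2rb, Il7r, Ifngr1, Ifnar1 and Ifnar2 and below them for Il2ra.

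Il2rb, the signalling chain that the IL-2 and IL-15 receptors share (100764_at), had a normalised signal of 457 at 72 h, against 188 and 217 in the cells with IL-21 at 48 h, and 209 and 272 without IL-21. The 72 h value was above every 48 h value. Il2rb rose 2.26-fold between 48 and 72 h (log2 difference 1.18, SE 0.23, 95% interval 0.62 to 1.74, limma adjusted p = 0.0295). The adjusted p in limma was 0.121 without the first and 0.0877 without the second 48 h array with IL-21, at log2 differences of 1.07 and 1.28.

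Il2ra, the CD25 chain that gives the IL-2 receptor its high affinity (101917_at), ran the other way. It had 68.9 at 72 h, against 108 and 163 with IL-21 at 48 h, and 154 and 267 without IL-21, so the 72 h array was the lowest of the 5. The 72 h signal was 1.92-fold lower than with IL-21 at 48 h (log2 difference -0.94, SE 0.40, 95% interval -1.92 to 0.04), and this did not pass (limma adjusted p = 0.198). In the deposited values, where the median difference over all probe sets was -0.58, it was -1.55 and passed (limma adjusted p = 0.00975). It did not pass with arrays centred on their medians (-1.14, limma adjusted p = 0.148) or scaled on the labelled hybridisation controls (-0.64, limma adjusted p = 0.288). Without the first or the second 48 h array with IL-21 the difference was -1.24 or -0.64. The alpha and beta chain signals thus lay on opposite sides of their 48 h values on the same array.

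Il7r, which encodes the alpha chain of the IL-7 receptor (99030_at), showed the widest spread over the arrays of any receptor here. It had 364 at 72 h, against 64.3 and 125 with IL-21 at 48 h, and 41.1 and 107 without IL-21. The 72 h array was above all the others, but arrays of 1 group at 48 h also differed, by 0.96 on the log2 scale with IL-21 and by 1.38 without it. The 72 h signal was 4.07-fold higher (log2 difference 2.02, SE 0.63, 95% interval 0.49 to 3.56), the 79th highest difference among the 7453 probe sets, with an unadjusted p of 0.018 and an adjusted p of 0.0984 in limma. With arrays scaled on the labelled hybridisation controls the SE of Il7r was 0.386, and that of Il4ra fell from 0.67 to 0.374. The p-value under that scaling is thus no measure of the spread among Il7r's own arrays. The difference there was 2.20, and its adjusted p in limma passed. It did not pass in the deposited values (0.0739), with arrays centred on their medians (0.11), without a variance trend (0.176), or without the first or the second 48 h array with IL-21 (0.281 and 0.133).

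Il4ra, the chain that binds IL-4 and also serves IL-13, did not pass. Its main probe set (102021_at) had 310 at 72 h, against 144 and 359 with IL-21 at 48 h, and 135 and 329 without IL-21, so the 72 h value fell inside the 48 h range. The log2 difference was 0.45 (SE 0.67, limma adjusted p = 0.726). It was -0.21 without the first and 1.10 without the second 48 h array with IL-21. A dim probe set (161192_at) had 18.2 at 72 h, against 10.4 and 14.2 with IL-21 at 48 h, and 12.2 and 17.1 without it.

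Of the interferon receptor genes, Ifngr1 and Ifnar1 rose at 72 h. Ifngr1, the cytokine-binding chain of the interferon gamma receptor (100552_at), had 115 at 72 h, against 32.1 and 37.0 with IL-21 at 48 h, and 45.4 and 51.6 without IL-21. The 72 h value was far above every 48 h value, and the 48 h groups did not overlap, as for 33.8% of all probe sets tested. Ifngr1 rose 3.34-fold (log2 difference 1.74, SE 0.27, 95% interval 1.09 to 2.40, limma adjusted p = 0.018). Without the first or the second 48 h array with IL-21 the log2 difference was 1.64 or 1.84, at adjusted p of 0.0854 and 0.0669 in limma.

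Ifnar1, the type I receptor chain that binds TYK2 (100483_at), had 101 at 72 h, against 33.3 and 48.3 with IL-21 at 48 h, and 50.1 and 52.4 without IL-21. It rose 2.52-fold (log2 difference 1.33, SE 0.31, 95% interval 0.58 to 2.09, limma adjusted p = 0.0475). This call lay next to the threshold, and leaving out any one of the 48 h arrays ended it, with adjusted p between 0.0847 and 0.12 in limma and log2 differences between 1.07 and 1.60.

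Ifnar2, the other type I chain, had 64.9 at 72 h on its main probe set (101014_at), against 34.9 and 40.1 with IL-21 at 48 h, and 23.1 and 27.1 without IL-21. The 3 groups did not overlap and stood in the order 72 h with IL-21, 48 h with IL-21, 48 h without it. Among all probe sets tested, the 48 h groups did not overlap for 33.8%, and the 72 h array lay above all 4 others for 30.4%. The 72 h signal was 1.73-fold higher than with IL-21 at 48 h (log2 difference 0.79, SE 0.30, 95% interval 0.05 to 1.54), which did not pass (limma adjusted p = 0.162). The dimmer probe set (101015_s_at) had 24.0 at 72 h, against 17.0 and 21.4 with IL-21 at 48 h, and 4.16 and 21.8 without IL-21, where 1 low array decides the spread.

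Ifngr2, the second chain of the interferon gamma receptor (160694_at), was dim. It had 8.49 at 72 h, against 3.65 and 5.75 with IL-21 at 48 h, and 5.21 and 6.41 without IL-21. The 72 h value was the highest of the 5 arrays, but signals of this size lay at the 22.7th percentile of all probe sets and were not tested. With no filter on low signal the log2 difference was 0.89 at a limma adjusted p of 0.458.

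**Figure D2:**
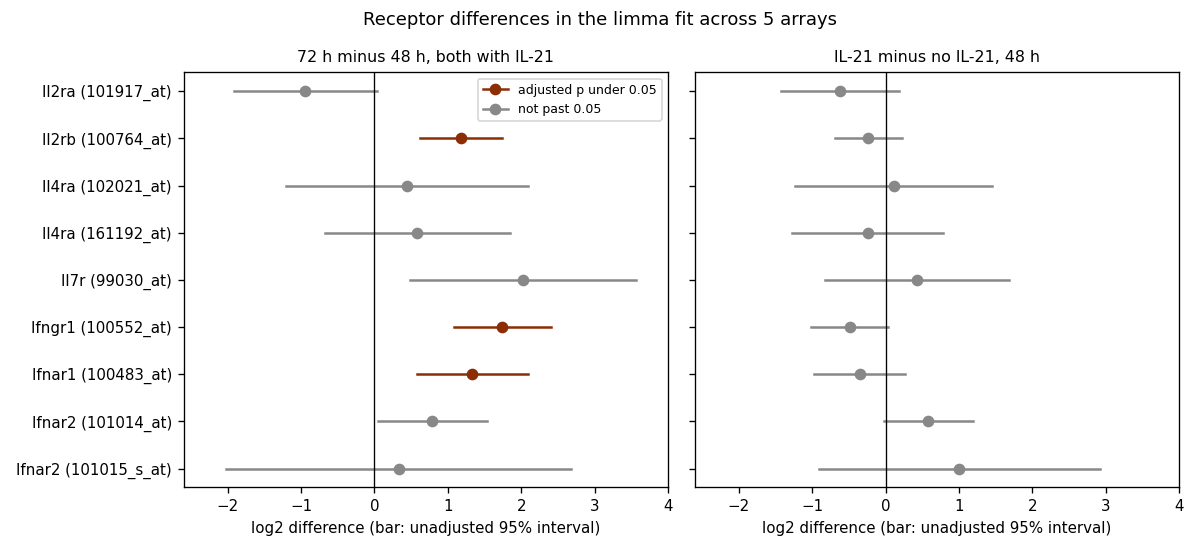
Log2 differences of the 9 receptor probe sets past the filter, for 72 h minus 48 h with IL-21 (left) and IL-21 minus no IL-21 at 48 h (right); points are estimates, bars 95% intervals without adjustment, and red marks an adjusted p under 0.05 in limma. Il2rb, Ifngr1 and Ifnar1 are red on the left, and nothing is red on the right.

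The time comparison rested on 1 array at 72 h, which limma assumed to vary like the 48 h groups. Scaling between arrays shifted all probe sets together, and the median difference of all probe sets was -0.58 in the deposited values, -0.17 with arrays centred on their medians and 0.33 with arrays scaled on the hybridisation controls. These scalings move the probe sets of an array together. Relative to that median the 72 h differences were 1.06 for Il2rb, 1.88 for Il7r, 1.70 for Ifngr1, 1.30 for Ifnar1, 0.82 for Ifnar2 and -0.97 for Il2ra. Taken as they stand in the deposited values, they were 0.48, 1.29, 1.12, 0.72, 0.24 and -1.55, all with the signs given above.

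**Figure D3:**
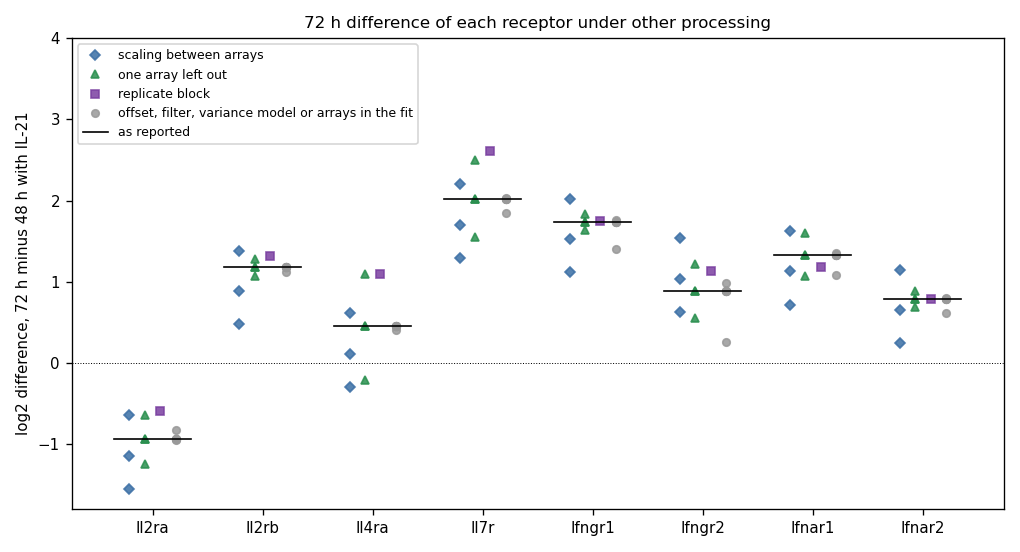
Log2 difference between 72 h and 48 h with IL-21 for each receptor gene's main probe set (vertical axis), as reported (black line) and under other processing (symbols by kind of change). Il2rb, Il7r, Ifngr1, Ifngr2, Ifnar1 and Ifnar2 stay above 0 and Il2ra below 0 in all of them, while Il4ra takes both signs, from -0.30 to 1.10.

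The comparison at 48 h asked what IL-21 changed in the receptors of cells stimulated with antigen and B7-1. No receptor passed. In limma 0 of the 7 genes had an adjusted p under 0.05, as had 0 of all 7453 probe sets (0.0%), and 0 of the 7 reached an unadjusted p under 0.05, which 327 probe sets (4.39%) did. The median of the 7 was -0.24 on the log2 scale, against -0.01 over all probe sets. The arrays with and without IL-21 did not overlap for 3 of the 7 genes (Ifngr1, Ifnar1 and Ifnar2), as for 33.8% of all probe sets.

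The chains of the type I receptor differed in sign. Ifnar2 had 34.9 and 40.1 with IL-21, against 23.1 and 27.1 without it (log2 difference 0.58, SE 0.25, 95% interval -0.02 to 1.19, limma adjusted p = 0.967). Ifnar1 had 33.3 and 48.3 with IL-21, against 50.1 and 52.4 without it (-0.35, SE 0.25, 95% interval -0.97 to 0.27, limma adjusted p = 0.973). Ifngr1 had 32.1 and 37.0 with IL-21, against 45.4 and 51.6 without it (-0.49, SE 0.22, 95% interval -1.02 to 0.04, limma adjusted p = 0.967). In the deposited values, where the median difference over all probe sets was 0.57, Ifnar1 and Ifngr1 had differences of 0.20 and 0.08. The dimmer Ifnar2 probe set differed by 1.00 (SE 0.78), a value that was -0.19 without the first of the arrays lacking IL-21.

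Among the receptors that use the common gamma chain, arrays of 1 group lay as far apart as the groups. Il2ra had 108 and 163 with IL-21, against 154 and 267 without it (log2 difference -0.62, SE 0.33, 95% interval -1.42 to 0.19, limma adjusted p = 0.967). In the deposited values it was 139 and 209 with IL-21 and 142 and 216 without, a difference of -0.04. Il2rb had 188 and 217 with IL-21, against 209 and 272 without it (-0.24, 95% interval -0.69 to 0.22), and 0.33 in the deposited values. Il7r had 64.3 and 125 with IL-21, against 41.1 and 107 without it (0.43, 95% interval -0.82 to 1.68), and Il4ra 144 and 359, against 135 and 329 (0.11, 95% interval -1.23 to 1.45). These intervals span 0 and also differences of 2-fold for Il2ra, Il7r and Il4ra, so equal levels are not shown. For Il2ra, Il2rb, Il4ra and Il7r the second replicate was higher than the first both with and without IL-21, as for 30.5% of all probe sets. Ifnar1 was lower on the second in both, as were 31.4%. For Il4ra that step was 1.32 with IL-21 and 1.28 without it on the log2 scale.

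The interferon receptor genes Ifnar2, Ifnar1 and Ifngr2 lie next to each other on mouse chromosome 16, with Il10rb, which encodes the second chain of the IL-10 receptor, between Ifnar2 and Ifnar1. Il10rb, described for its place, had 155 at 72 h, against 64.2 and 93.7 with IL-21 at 48 h, and 78.7 and 114 without IL-21. Its log2 difference at 72 h was 1.00 (SE 0.34, limma adjusted p = 0.124). All 4 neighbours were higher at 72 h than on any 48 h array, as were 30.4% of all probe sets tested. Ifnar1 passed, Ifnar2 and Il10rb did not, and Ifngr2 was too dim to be tested. Ifngr1 lies on chromosome 10.

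Other genes of these pathways were read from lists, and none of their members passed at 48 h in limma. Of 13 other cytokine receptor genes past the filter, 1 rose at 72 h, 0 fell and 12 did not pass, where 4.04% of all probe sets tested rose and 7.12% fell, so the count called is near that share. By sign 11 of the 13 were higher, and the median log2 difference was 0.67, against -0.01 over all probe sets. Il17ra, the IL-17 receptor chain, had 403 at 72 h, against 132 and 176 with IL-21 at 48 h (1.40, SE 0.31, limma adjusted p = 0.04), and its other probe set 1.01. Il1r2, the decoy receptor for IL-1, had 73.2 at 72 h, against 16.7 and 19.6 with IL-21 at 48 h (2.02, limma adjusted p = 0.0513). Of 13 ligand genes on the array only 3 passed the filter, and none of these was called, where 11.2% of all probe sets tested were at 72 h.

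The signalling molecules below the receptors were counted next. Of 9 JAK kinase and STAT genes past the filter, 1 rose at 72 h, 0 fell and 8 did not pass, a share called equal to the 11.2% over all probe sets, with 8 of 9 higher and a median of 0.76. Jak1, the kinase that partner chains such as Il2rb and Il7r bind, had 399 at 72 h, against 207 and 226 with IL-21 at 48 h (log2 difference 0.88, SE 0.18, limma adjusted p = 0.0336). It had 241 and 261 without IL-21 at 48 h. Stat3, the main STAT of IL-21 signalling, had 623 at 72 h, against 302 and 385 with IL-21 at 48 h (0.87, limma adjusted p = 0.0775, other probe set 0.49). In the deposited values the median of the JAK and STAT list was 0.04 and that of the other cytokine receptors -0.05, against -0.58 over all probe sets.

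Of 13 inhibitors of cytokine receptor signalling past the filter, 2 fell at 72 h, 0 rose and 11 did not pass, where 7.12% of all probe sets fell and 4.04% rose. By sign 5 were higher and 8 were lower, and their median was -0.10, against -0.01 over all probe sets. Cish, which binds the IL-2 receptor and restrains STAT5, had 55.0 at 72 h, against 159 and 245 with IL-21 at 48 h and 208 and 214 without it (log2 difference -1.84, SE 0.29, limma adjusted p = 0.0187). Socs2, another STAT5-induced inhibitor, had 77.6 at 72 h, against 233 and 319 with IL-21 at 48 h and 214 and 266 without it (-1.81, SE 0.26, limma adjusted p = 0.0163). Both lay below all 4 arrays at 48 h, as did 33.8% of all probe sets tested.

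Of 18 genes known to respond to IL-2 and STAT5, 1 rose, 4 fell and 13 did not pass at 72 h, where 4.04% of all probe sets rose and 7.12% fell. By sign 8 were higher and 10 were lower, and their median was -0.28. The list holds Il2ra and Il2rb themselves, and Cish and Socs2 are on it as well as among the inhibitors. Besides these, Myc fell by 1.17 on the log2 scale (limma adjusted p = 0.0308), with 124 at 72 h, against 245 and 318 with IL-21 at 48 h. Lta, lymphotoxin alpha, fell on 1 probe set (-3.74, limma adjusted p = 0.0149) but differed by 0.07 on the other. Of 12 adaptors and relays below the IL-2, IL-4 and IL-7 receptors 0 passed in either direction (median 0.12), against 11.2% of all probe sets tested. Among them the IL-4 receptor adaptor Irs2 differed by 1.43 at signals between 8.03 and 31.5, and the kinase gene Pik3cd by 0.34 (limma adjusted p = 0.182 and 0.188).

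Of 21 listed interferon-responsive genes on the array 15 passed the filter. Of these 0 rose and 0 fell at 72 h in limma, where 4.04% of all probe sets tested rose and 7.12% fell. By sign 8 were higher and 7 lower, and the median was 0.29. Gbp3, an interferon-induced GTPase, had 173 at 72 h, against 65.6 and 77.8 with IL-21 at 48 h (log2 difference 1.28, limma adjusted p = 0.0827), and Ly6e differed by 0.53 (limma adjusted p = 0.0798) on 1 probe set and by -0.73 on a second. A list drawn up for genes that fall with Il7r after T cell stimulation had 8 genes past the filter. Of these 2 rose at 72 h, 0 fell and 6 did not pass, where 4.04% of all probe sets rose and 7.12% fell. By sign 7 of the 8 were higher, with a median of 0.66. The 1 lower gene was Gfi1 (-0.68), and whether each listed gene falls with Il7r was not tested. Ccr7, the lymph node homing receptor, had 470 at 72 h, against 193 and 217 with IL-21 at 48 h (1.20, SE 0.19, limma adjusted p = 0.0187), and Lef1, a transcription factor of naive and memory T cells, 1000 against 458 and 580 (0.96, SE 0.19, limma adjusted p = 0.0321, other probe set 0.87). Without either of the 48 h arrays with IL-21 no probe set on the array passed at 72 h in limma, these genes included. In the deposited values Jak1 differed by 0.16, Ccr7 by 0.50 and Il17ra by 0.69, none of them past the threshold. The median of the interferon list was -0.12 in those values, and that of all probe sets -0.58.

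**Figure D4:**
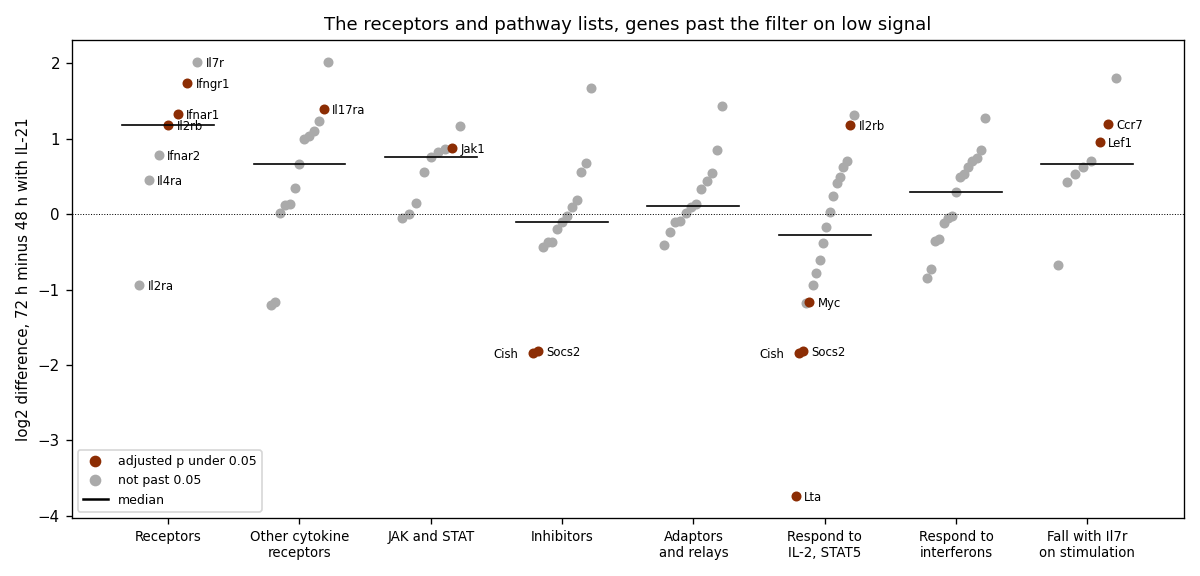
Log2 difference between 72 h and 48 h with IL-21 (vertical axis) for the 7 receptor genes and 7 pathway lists, each point a gene past the filter; red marks an adjusted p under 0.05 in limma and bars are medians. The receptors have a median of 1.18, the JAK and STAT genes 0.76 and the genes responding to IL-2 and STAT5 -0.28, with Cish, Socs2, Myc and Lta as the red points below 0.

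The genes whose course over the 5 arrays was most like a receptor's were found by the root mean square difference of centred log2 signals among 5603 other genes, a description over few arrays. Nearest to Il2ra were Crem (0.13), Twsg1 (0.15) and St7 (0.16), and nearest to Il7r were Tiparp (0.23), Stard10 (0.24) and Sema4f (0.26). Rnf19a (0.05), Tob1 (0.06) and Utrn (0.06) were nearest to Il2rb, and Gem (0.08), Gng2 (0.17) and Atf6 (0.19) to Il4ra. Cd37 (0.10), Cd47 (0.11) and Prr13 (0.13) were nearest to Ifngr1. Cd37 is on the B cell list above, where it was called at 72 h and the other 5 markers past the filter were not. Myl4 (0.11), Sptbn1 (0.12) and C1qtnf12 (0.12) were nearest to Ifnar1, and Elf4 (0.06), Ddc (0.11) and Mvk (0.13) to Ifnar2.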

How the data were processed

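RNA of 5 samples was measured on 1 array each. Per the submitters' processing notes the deposited intensity values are probe set signals made with MAS5, on a linear scale, while its version, its scaling target and the detection calls have no source here. The columns differ in trimmed mean, so they had not been scaled to a common target. Leaving out controls kept 12422 probe sets, 10833 of them under a single gene symbol, and 10817 of these matched the GRCm38.p6 gene table by Entrez identifier. Before log2 each value got an offset of 1.53, which is the 10th percentile of the values, which understates changes of dim probe sets, and arrays were quantile-normalised, which removes any shift all genes share. Probe sets with a mean above the 40th percentile were kept (7453). Group means of all 5 arrays were fitted in limma 3.58.1 (R 4.3.3) with a variance trend, 2 residual degrees of freedom, two-sided p-values adjusted by Benjamini-Hochberg across the 7453, and a threshold of 0.05. The procedure was tested on simulated data, in which each probe set had independent noise of the same size on every array. That test therefore cannot speak to the unknown spread at 72 h or to differences that replicates share between groups. Members, lists and tests were chosen with earlier results of these data known, and motifs by hand, the NF-kappaB letters after windows had been seen. The rule names up to 4 genes of a pathway list with the smallest p and all that passed; the 2 with the smallest p at 72 h are given here, none for the ligands, and Il10rb for its place. The number of arrays limits the precision.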

Additional observations from a re-analysis of the deposited data

How the results depend on the processing

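With 5 arrays and 1 at 72 h, precision is limited by the number of arrays, and signals near background are uncertain. At 48 h the count of probe sets past the threshold was 0 and stayed 0 under the offsets, filters, variance models and each left-out array. It was 696 in the deposited values (all higher with IL-21), 44 with scaling on the hybridisation controls (2 higher, 42 lower) and 11 with the replicate number as a block (9 higher, 2 lower). At 72 h it was 832, but 2128 in the deposited values (101 higher, 2027 lower), 0 without a variance trend (1843 at an unadjusted p under 0.05), 1860 with the replicate block (860 higher, 1000 lower), 425 with only the compared groups in the fit, and 0 to 453 when 1 array was left out. The share called higher was 301 of 832, against 122 of 674 with arrays centred on their medians and 667 of 905 with scaling on the controls. For these counts the cause was not tested.

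Deposited values turned the 48 h differences of Il2rb (0.33), Ifngr1 (0.08), Ifnar1 (0.20), the dim Il4ra probe set (0.27) and the untested Ifngr2 (0.03) above 0. They turned the 72 h differences of Il4ra (-0.30), the dimmer Ifnar2 probe set (-0.07) and Pik3cd (-0.35) below 0. Scaling on the controls gave Il4ra -0.30 at 48 h. Leaving out 1 array gave -0.55 to 0.77 for Il4ra, -0.26 to 1.12 for Il7r and -0.19 to 2.20 for the dimmer Ifnar2 probe set at 48 h, and -0.21 to 1.10 for Il4ra at 72 h. Without a variance trend the 72 h adjusted p in limma was 0.0877 for Il2rb, 0.0525 for Ifngr1 and 0.0868 for Ifnar1, and Il2rb and Ifnar1 also missed the threshold in the deposited and the median-centred values, and Ifnar1 with no filter (0.0855) and with only the compared groups (0.0915).

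The replicate numbers are shared between the 48 h groups, but no label ties them to a mouse, day or culture. Across 7453 probe sets the second-minus-first differences with and without IL-21 correlated at 0.361. With the replicate block Il7r differed by 2.61 and Il4ra by 1.10 at 72 h (limma adjusted p = 0.000324 and 0.00238), Il2rb, Ifngr1 and Ifnar1 kept their calls, and no receptor passed at 48 h.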
